A study of Mus musculus with 18 samples.

Results

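Isolated CpGs are cytosine-guanine pairs with no other CpG in their surroundings. Here a CpG was taken as isolated when it lay on an autosome, had no other listed CpG within 250 bp on either side and had at least 5 reads in each of the 18 libraries. This gave 7791 CpGs. The authors' table covers 21867550 CpGs, all those of the mouse genome build GRCm38, and 678426 of the autosomal ones have no neighbour within 250 bp. Isolated CpGs therefore make up 3.33% of all autosomal CpGs but 0.550% of the 1416764 autosomal CpGs read at least 5 times in every library. The level of a CpG is the count of methylated reads over the count of all reads, and the level of a library is the mean over its isolated CpGs.

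Methylation was read by eRRBS, an enhanced form of reduced representation bisulfite sequencing, in which restriction fragments are treated with bisulfite so that unmethylated cytosines read as thymine. All 6 groups are mouse embryonic stem cells that lack their own Dnmt1 and carry a stably selected pPyCAGIP expression vector kept under puromycin. The vector supplied WT DNMT1 or a mutant in which tryptophans are replaced by alanine. There were 2 single mutants, W465A and W796A, and 2 double mutants, W464A/W465A and W465A/W796A. W464A/W465A/W796A carried all replacements. Each group has 3 libraries. The labels call them biological replicates and speak of several stable lines per group. They do not say whether the 3 libraries came from different lines, so the spread between libraries may be partly technical. Cells with the empty vector were not analysed here. WT is a parallel group and not a state measured before the mutants. Words such as loss, kept and resistant below describe a level set against WT, not a change followed over time. Whether a lower level reflects methylation lost or methylation never regained was not tested.

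DNMT1 copies CpG methylation onto the new DNA strand after replication, guided by UHRF1 and by contacts with histone tails. Trp464 and Trp465 lie in the RFTS domain, which contacts histone H3, and Trp796 lies in a BAH domain. CpGs without close neighbours, often called solo CpGs, are known as positions that readily lose methylation in dividing cells. This holds above all when they are flanked by A or T and lie in CpG-poor, late-replicating parts of the genome. The distance of 250 bp used here is a choice, and a CpG with neighbours by this rule can be solo by a shorter one.

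The windows below show what such a CpG looks like. Each is 102 bases of the GRCm38 reference (RefSeq), plus strand, 5′ to 3′, with the isolated CpG in capitals and no other CpG in the window. Each was read at least 10 times in every library. Members 1 and 2 had the largest losses of methylation in W465A, members 3 and 4 the largest in W464A/W465A/W796A, member 5 was among the largest in W465A/W796A, and member 6 had the largest gain from W465A to W465A/W796A. Member 7 was high in WT and was among those with the smallest difference from WT in W464A/W465A. Members 8 and 9 were unmethylated in WT. Member 10 was the most deeply read one flanked on both sides by A or T.
Member 1, chr2:5751544-5751645: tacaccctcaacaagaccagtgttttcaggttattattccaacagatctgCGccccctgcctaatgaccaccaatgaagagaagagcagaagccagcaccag
Member 2, chr11:60406403-60406504: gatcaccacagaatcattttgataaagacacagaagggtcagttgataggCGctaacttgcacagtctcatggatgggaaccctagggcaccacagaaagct
Member 3, chr2:61389028-61389129: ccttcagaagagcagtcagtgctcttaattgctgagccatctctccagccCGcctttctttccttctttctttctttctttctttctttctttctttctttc
Member 4, chr5:135944447-135944548: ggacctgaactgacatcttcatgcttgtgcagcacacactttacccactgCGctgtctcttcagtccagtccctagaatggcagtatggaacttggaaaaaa
Member 5, chr14:67924777-67924878: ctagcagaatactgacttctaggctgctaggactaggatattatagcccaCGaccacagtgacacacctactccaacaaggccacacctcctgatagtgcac
Member 6, chr4:146729216-146729317: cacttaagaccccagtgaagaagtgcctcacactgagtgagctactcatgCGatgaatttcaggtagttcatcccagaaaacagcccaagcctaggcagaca
Member 7, chr5:32098383-32098484: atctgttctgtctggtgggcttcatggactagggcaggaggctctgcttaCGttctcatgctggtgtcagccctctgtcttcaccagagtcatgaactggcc
Member 8, chr1:156499108-156499209: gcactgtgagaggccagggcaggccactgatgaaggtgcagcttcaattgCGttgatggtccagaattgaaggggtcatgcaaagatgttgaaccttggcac
Member 9, chr1:173949361-173949462: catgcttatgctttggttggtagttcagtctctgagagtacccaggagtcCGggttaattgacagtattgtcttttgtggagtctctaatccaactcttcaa
Member 10, chr14:5906462-5906563: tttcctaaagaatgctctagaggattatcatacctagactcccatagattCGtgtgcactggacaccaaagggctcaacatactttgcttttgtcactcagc

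The isolated CpGs that could be read are a particular sample of all isolated CpGs. They are 1.15% of the 678426, and the share read ranged from 0.857% on chromosome 3 to 2.45% on chromosome 11. Of the 7791, 3782 lay between genes, 3688 in introns, 188 in exons and 133 within 500 bp of a transcription start. Repeat-masked sequence held 25.9% of them, against 27.5% of all isolated CpGs. Their restriction fragments, cut by MspI, BfaI and MseI, had a median length of 124 bp, and 95.9% were between 70 and 200 bp long, whereas 41.5% of all isolated CpGs sat on fragments of that length. The surrounding 100 kb held a median of 835 CpGs around the CpGs read and 601 around all isolated CpGs. CpGs flanked by A or T on both sides (WCGW) were 29.1% of those read and 39.9% of all. The distance to the nearest other CpG ranged from 251 to 1382 bp, with a median of 313 bp. CpG-poor regions and weak flanks are thus under-represented in what follows.

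Total reads over all listed CpGs ranged from 59776439 to 138978763 per library. At the isolated CpGs the median was between 9 and 22 reads per library, 5.96% of them were read at least 10 times in every library, and 32 of them at least 20 times. A single CpG is therefore measured coarsely, and the means over many CpGs carry the comparisons. PCR duplicates cannot be told from separate molecules in these counts.

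In cells with WT DNMT1 isolated CpGs were mostly methylated, and in the groups with a substitution in the RFTS domain their level was far lower. The level in the WT libraries was 61.2%, 77.3% and 77.6%, a mean of 72.0% ± 9.39 (SD, n = 3). In W796A it was 58.2%, 83.4% and 78.2%, a mean of 73.3% ± 13.3 (SD, n = 3). In both groups replicate 1 stood well below the other two, and the W796A libraries lay on both sides of the WT libraries.

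In W465A the level was 34.1%, 23.0% and 23.5%, a mean of 26.9% ± 6.24 (SD, n = 3). In W464A/W465A it was 16.8%, 23.2% and 16.8%, a mean of 18.9% ± 3.69 (SD, n = 3). In W464A/W465A/W796A it was 18.1%, 19.4% and 15.9%, a mean of 17.8% ± 1.76 (SD, n = 3). None of these 9 libraries came near any WT library, while W464A/W465A overlapped W465A and W464A/W465A/W796A overlapped W464A/W465A.

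In W465A/W796A the level was 51.5%, 46.2% and 43.5%, a mean of 47.0% ± 4.07 (SD, n = 3). These libraries lay apart from both sides, below every WT library and above every W465A library. Isolated CpGs thus kept more methylation with the W465A and W796A substitutions together than with W465A alone.

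Expressed as differences from WT, W796A was higher by 1.27 percentage points (SE 9.39) and W465A lower, at -45.1 points (SE 6.51). The W796A difference turned negative without WT replicate 1, at -4.15 points, without W796A replicate 2, at -3.77, or without W796A replicate 3, at -1.22. The difference was -53.1 points (SE 5.83) for W464A/W465A, -24.99 points (SE 5.91) for W465A/W796A and -54.2 points (SE 5.52) for W464A/W465A/W796A. W465A/W796A exceeded W465A by 20.2 points (SE 4.30). With 3 libraries against 3 an exact permutation test cannot give a p below 0.1, which is also the value for each pair of groups that did not overlap.

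**Figure D1:**
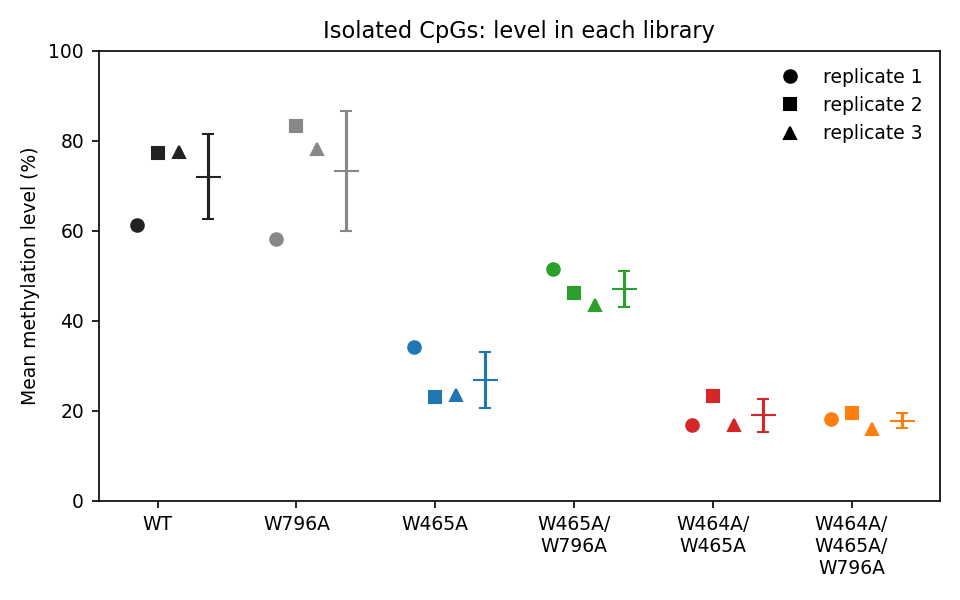
Mean methylation level of the 7791 isolated CpGs (%, y axis) in each library of the 6 groups (x axis), with replicate numbers shown by marker shape. Bars to the right of the points give the mean and SD of 3 libraries. W465A/W796A, at 43.5% to 51.5%, sits between the WT libraries (61.2% to 77.6%) and the W465A libraries (23.0% to 34.1%).

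The distance rule itself did not mark a step in the levels. CpGs just inside it, with the nearest CpG at 251 to 260 bp (896 CpGs), had 72.1% in WT, 28.5% in W465A and 19.7% in W464A/W465A. CpGs just outside it, with the nearest CpG at 241 to 250 bp (974 CpGs), had 71.01%, 27.6% and 18.9%.

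The next question was whether isolated CpGs differed from CpGs with company. Covered CpGs were grouped by the number of other CpGs within 250 bp, with 24189 having 1 neighbour, 182788 having 2 to 4, 387827 having 5 to 9 and 814169 having 10 or more. In WT the isolated CpGs were nearly as methylated as their companions, at 72.0% against 72.7% with 1 neighbour, 73.9% with 2 to 4 and 73.3% with 5 to 9. CpGs with 10 or more neighbours, which include CpG islands, were at 28.6%. In the groups with an RFTS substitution the isolated CpGs fell further behind. W465A had 26.9% at isolated CpGs, 28.9% with 1 neighbour, 31.6% with 2 to 4 and 32.4% with 5 to 9. W464A/W465A had 18.9%, 20.3%, 22.7% and 23.8% in the same order.

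In every one of the 18 libraries isolated CpGs were lower than CpGs with 2 to 4 neighbours, but by different amounts. The gap in WT was between 0.695 and 2.85 points, and in W796A between 0.679 and 1.57 points. It was between 4.61 and 4.89 points in W465A, between 4.83 and 5.60 points in W465A/W796A, between 3.51 and 3.96 points in W464A/W465A and between 3.46 and 4.38 points in W464A/W465A/W796A. The gap of every library with a substitution in the RFTS domain was thus wider than that of any library without one. Relative to the WT mean of the same class, W465A kept 37.3% at isolated CpGs and 42.7% at CpGs with 2 to 4 neighbours, and W465A/W796A kept 65.3% and 70.8%.

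The effect of a substitution was tested over the genetic backgrounds that carry it, with library labels exchanged only within a background and p-values adjusted over 9 tests. The effect of W465A, over backgrounds with and without W796A, was -35.7 points at isolated CpGs and -32.2 points with 2 to 4 neighbours. This difference of -3.50 points had an exact permutation p of 0.005, the smallest that 400 arrangements can give, and an adjusted p of 0.009. The effect of W464A/W465A was -54.3 and -52.0 points, a difference of -2.28 points with the same exact p of 0.005 and adjusted p of 0.009. Against CpGs with 1 neighbour the W465A effect was 1.36 points larger in size, at -1.36 points (exact p = 0.005, adjusted p = 0.009), and the W464A/W465A effect differed by -0.691 points (exact p = 0.01, adjusted p = 0.015). For W796A the difference was 0.0581 points against 1 neighbour (exact p = 0.630, adjusted p = 0.708) and 0.0552 points against 2 to 4 neighbours (exact p = 0.854, adjusted p = 0.854). Against the sparsely methylated CpGs with 10 or more neighbours the effects differed by -23.2 points for W465A and -34.1 points for W464A/W465A (exact p = 0.005 and adjusted p = 0.009 for each) and by 3.33 points for W796A (exact p = 0.184, adjusted p = 0.237). A class at 28.6% in WT has fewer points to lose, and on the log2 scale the differences were -0.14 for W465A (adjusted exact p = 0.009) and -0.25 for W464A/W465A (adjusted exact p = 0.015).

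These differences were smaller between CpGs of like regions. Among CpGs whose surrounding 100 kb held at most 627 CpGs, the W465A effect differed between isolated CpGs and CpGs with 2 to 4 neighbours by -2.33 points (adjusted exact p = 0.030), and the W464A/W465A effect by -0.531 points (adjusted exact p = 0.310). In regions with more than 1084 CpGs the differences were -1.67 and -1.19 points (adjusted exact p = 0.01125 for each). Against 1 neighbour, the W464A/W465A difference passed the threshold in neither kind of region. Among the 32 isolated CpGs read at least 20 times in every library the W464A/W465A difference from 2 to 4 neighbours was 1.64 points in the opposite direction (adjusted exact p = 0.045).

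**Figure D2:**
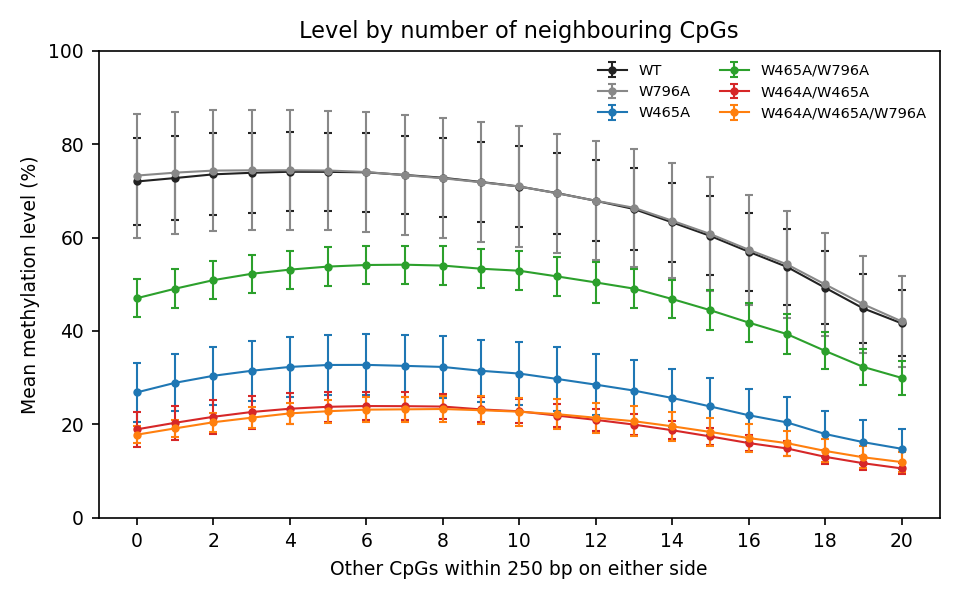
Mean methylation level (%, y axis) of covered CpGs by the number of other CpGs within 250 bp (x axis, 0 marks the isolated CpGs), with the mean and SD of 3 libraries for each of the 6 groups. The WT curve is nearly flat from 0 to 9 neighbours and falls beyond, whereas the curves of W465A and W465A/W796A start lower at 0, at 26.9% and 47.0%, than at 5 to 9 neighbours, at 32.4% and 53.9%.

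Isolated CpGs were also set against the nearest CpGs that could be read. For 1840 of them a covered CpG lay 251 to 1000 bp away, with a median of 2 such CpGs. In WT the isolated CpGs were 1.41 ± 0.529 points above those around them (SD, n = 3, from 0.892 to 1.95 points). In W796A they were 1.03 ± 0.671 points above. The difference was -0.107 ± 0.638 points in W465A, -0.496 ± 0.631 in W465A/W796A, 0.260 ± 1.15 in W464A/W465A and -0.212 ± 0.683 in W464A/W465A/W796A. The isolated CpGs lay above their surroundings in all 6 libraries of WT and W796A, and the libraries of each of the other 4 groups fell on both sides of 0.

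Isolated CpGs of CpG-poor and CpG-rich regions were close in level in WT and differed in the groups with an RFTS substitution. The members were divided into 4 groups of about equal size by the number of CpGs in the surrounding 100 kb, with borders at 627, 835 and 1084 CpGs. In WT the CpG-poorest group (1954 members) had 70.9% and the CpG-richest (1943 members) 72.0%, and the libraries differed by between -3.60 and 1.63 points. In W465A the same groups had 21.4% and 30.1%, and in W464A/W465A 14.5% and 21.7%. W465A/W796A had 41.5% and 50.3%, and W464A/W465A/W796A 14.1% and 19.9%. The CpG-poor members were lower in each of these 12 libraries, by between 5.67 and 9.17 points.

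The W465A effect was -40.4 points in the CpG-poorest regions and -32.0 points in the CpG-richest, a difference of -8.39 points (exact permutation p = 0.005, adjusted p = 0.012 over 12 tests). The W464A/W465A effect was -57.5 and -51.4 points, a difference of -6.12 points (exact p = 0.005, adjusted p = 0.012). On the log2 scale, which compares ratios of levels, the differences were -0.39 and -0.54 (adjusted exact p = 0.0105 for each). The W796A effect differed by 0.930 points (exact p = 0.112, adjusted p = 0.192), but on the log2 scale its difference of 0.12 passed (adjusted exact p = 0.0147). Among isolated CpGs read at least 10 times in every library the differences were -6.39 points for W465A (adjusted exact p = 0.060) and -1.52 points for W464A/W465A (adjusted exact p = 0.323).

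With the members split into 10 equal groups by this number, W465A kept 28.0% of the WT level where the 100 kb window held a median of 457 CpGs and 41.9% where it held a median of 1434. W465A/W796A kept 56.3% and 70.4% in the same groups of members, and W464A/W465A 17.9% and 30.7%. The rise was steeper over the lower 5 groups of members, where W465A went from 28.0% to 37.6%, than over the upper 5, where it went from 40.4% to 41.9%. W464A/W465A went from 17.9% to 26.5% and from 28.1% to 30.7%, and W465A/W796A from 56.3% to 65.4% and from 68.1% to 70.4%. The distance to the nearest CpG ran alongside the region. Members whose nearest CpG was over 600 bp away (286 CpGs) had 70.1% in WT, 22.4% in W465A and 41.5% in W465A/W796A, and those at 251 to 300 bp (3331 CpGs) had 72.0%, 27.3% and 47.6%.

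**Figure D3:**
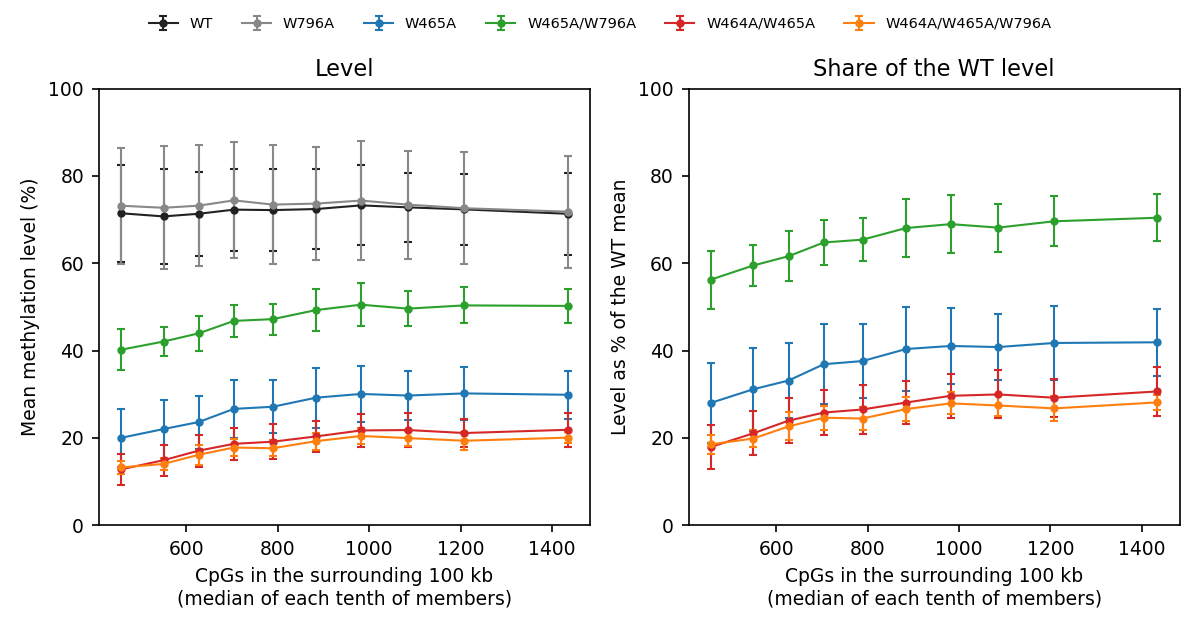
Left, mean methylation level of isolated CpGs (%, y axis) by the number of CpGs in the surrounding 100 kb (x axis, median of each of 10 equal groups of members). Right, the same as a percentage of the WT mean. Points and bars are the mean and SD of 3 libraries. WT and W796A are flat, and W465A goes from 28.0% of the WT level in the CpG-poorest group to 41.9% in the CpG-richest.

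Isolated CpGs in introns kept more methylation than those between genes in the groups with an RFTS substitution. Intronic isolated CpGs had 72.7% in WT and intergenic ones 71.3%. In W465A the levels were 28.6% and 25.04%, in W464A/W465A 20.7% and 17.2%, and in W465A/W796A 49.5% and 44.5%. The intronic members were higher in all 12 libraries with an RFTS substitution, by between 2.57 and 5.18 points. The effect of W465A was smaller in size in introns by 3.33 points and that of W464A/W465A by 2.13 points (exact p = 0.005, adjusted p = 0.012 for each). For members read at least 10 times throughout, both adjusted exact p-values were 0.090.

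Region and gene position overlapped without being the same. Within the CpG-poorest regions W465A had 22.9% at 649 intronic members and 20.6% at 1233 intergenic ones. Within the CpG-richest it had 30.97% at 1075 intronic and 28.9% at 771 intergenic members. Exonic members had 73.9% in WT and 29.98% in W465A, and members near a transcription start 70.6% and 25.4%. Repeat-masked members had 71.6% in WT and 25.6% in W465A, against 72.1% and 27.3% outside repeats. The W465A and W464A/W465A effects differed between them by -0.351 points (exact p = 0.395, adjusted p = 0.474) and -0.248 points (exact p = 0.355, adjusted p = 0.473). On the log2 scale these differences were -0.042 (adjusted exact p = 0.158) and -0.054 (adjusted exact p = 0.0105). The W796A effect differed by 0.686 points (exact p = 0.0225, adjusted p = 0.045), and this call was lost, at adjusted exact p-values from 0.0595 to 0.093, when any of 10 libraries was left out.

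The bases next to the CpG went with its level in every group. WCGW members (2268 CpGs, A or T on both sides) had 68.0% in WT, SCGW members (4268 CpGs, A or T on 1 side) 72.8%, and SCGS members other than CCGG (1242 CpGs, C or G on both sides) 77.3%. In W465A the levels were 23.9%, 27.7% and 29.8%, and in W465A/W796A 42.2%, 48.0% and 53.1%. The WCGW members were the lower in each of the 18 libraries. The gap to SCGS ran from 6.91 to 13.1 points in WT, from 5.68 to 7.85 points in W796A, from 5.32 to 7.30 points in W465A and from 1.89 to 2.68 points in W464A/W465A. Among single flanks, ACGT had the lowest WT level outside CCGG, at 66.9% (662 CpGs), and GCGC the highest, at 78.3% (337 CpGs).

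How the flanks changed the effect of a substitution depended on the scale and, for W465A, on the background. In points the W464A/W465A effect was -52.4 at WCGW and -57.4 at SCGS, a difference of 5.03 points (exact p = 0.005, adjusted p = 0.012), while on the log2 scale the difference was -0.08 and did not pass (adjusted exact p = 0.150). For W465A the difference was -0.465 points (exact p = 0.800, adjusted p = 0.800), and on the log2 scale -0.17 (adjusted exact p = 0.0147). The value in points is a mean over the backgrounds without and with W796A, which went opposite ways. WCGW minus SCGS was -9.25 points in WT and -5.98 in W465A, but -6.75 in W796A and -10.95 in W465A/W796A. Flank and region could be combined. In W465A the level was 18.8% at WCGW members of the CpG-poorest regions and 33.6% at SCGS members of the CpG-richest, where WT had 66.8% and 77.1%.

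**Figure D4:**
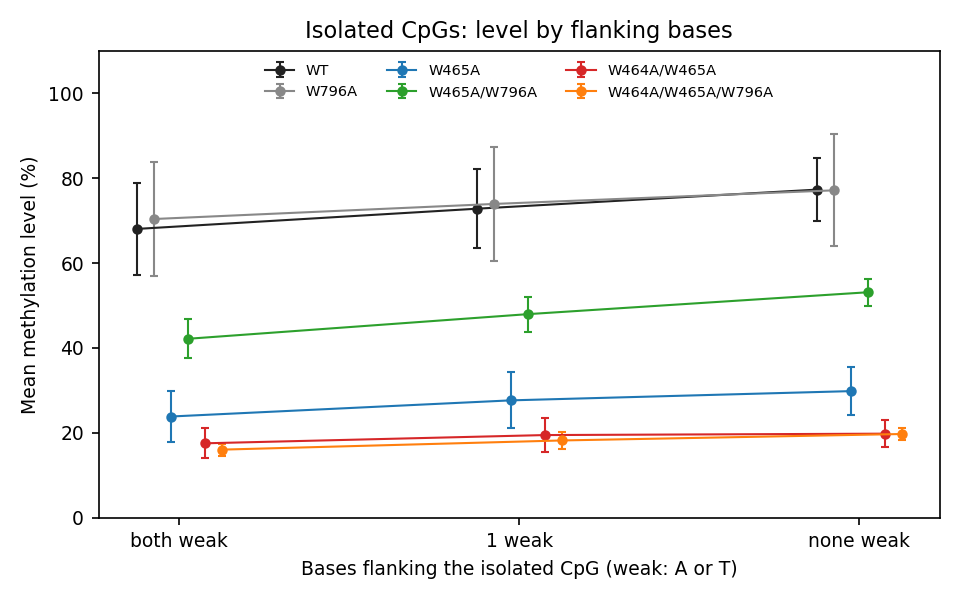
Mean methylation level of isolated CpGs (%, y axis) by the flanking bases (x axis, weak meaning A or T on both sides, on 1 side or on none, without CCGG), with the mean and SD of 3 libraries for each of the 6 groups. The level rises with fewer weak flanks, from 68.0% to 77.3% in WT and from 42.2% to 53.1% in W465A/W796A.

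CCGG, the site that MspI cuts, was the exception. Only 13 of the 30801 isolated CCGG sites were read in every library, and they were almost unmethylated, at 0.616% in WT and 1.70% in W465A. CCGG sites with 1 to 4 neighbours (277 CpGs) had 8.63% in WT, where other CpGs with 1 to 4 neighbours had 73.8%. Sites that the enzyme cuts give reads that begin at the site, and the part of this in the low level was not tested. Member 9, at position 173949411 of chromosome 1 between genes and 6739 bp from Ifi203, is such a site. It had 0 methylated reads in 17 libraries and 1 of 34 reads in W464A/W465A replicate 2.

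Unmethylated isolated CpGs were few. In WT 146 of the 7791, the 13 CCGG sites included, had a pooled level under 20%, of which 80 lay between genes, 62 in introns, 3 in exons and 1 near a transcription start, and 136 were also under 20% in W796A. Not a single methylated read was found in any library at 53 of the 7791, or 0.680%, of which 5 were CCGG sites, with a median of 231 reads over the 18 libraries. The shares were 0.707% of CpGs with 1 neighbour and 0.641% of those with 2 to 4. Member 8, at position 156499158 of chromosome 1 and 24827 bp from Soat1, a cholesterol-esterifying enzyme, had 0 methylated reads in every library, with 10 to 63 reads each. Whether the stem cells carry the reference base at these positions was not tested.

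In the mutants most isolated CpGs held a mixture of methylated and unmethylated reads, as they did in WT. To compare libraries of different depth, the expected outcome of drawing 5 reads from each CpG was computed. In WT all 5 reads were methylated at 28.8% ± 12.2 of isolated CpGs and none at 2.96% ± 1.42 (SD, n = 3). In W465A all 5 were methylated at 1.32% ± 0.740 and none at 31.8% ± 9.69, and in W464A/W465A at 0.427% ± 0.293 and 44.0% ± 6.20. In W465A/W796A the outcome was mixed at 83.4% ± 1.01 of the CpGs, against 68.3% ± 10.9 in WT and 66.8% ± 9.10 in W465A. The mixed share was higher in each W465A/W796A library, from 82.5% to 84.5%, than in any WT library, from 60.1% to 80.6%. In W465A/W796A it was nearly the same at CpGs with 1 neighbour, 83.4%, and with 2 to 4, 83.2%. A mixed draw is likeliest at a level near 50%, so this share largely follows the mean level and is not a separate result. W796A had a mixed outcome at 64.97% ± 18.5 of the CpGs, with libraries from 49.7% to 85.6%, the highest of which exceeded every W465A/W796A library.

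**Figure D5:**
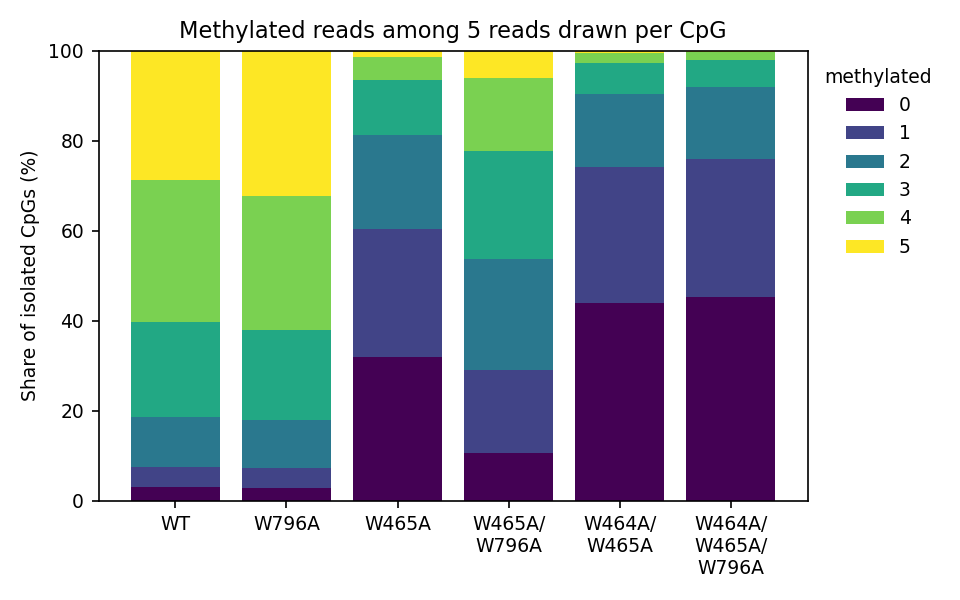
Share of isolated CpGs (%, stacked bars, mean of 3 libraries) by the number of methylated reads among 5 reads drawn per CpG, for the 6 groups (x axis). All 5 reads are methylated at 28.8% of CpGs in WT and 6.08% in W465A/W796A, and none at 31.8% in W465A, 44.0% in W464A/W465A and 45.3% in W464A/W465A/W796A.

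With reads pooled over the 3 libraries of a group, 3034 of the 7791 isolated CpGs were at 80% or more in WT and 2939 in W796A. There were 203 in W465A/W796A, 8 in W465A, 1 in W464A/W465A/W796A and 0 in W464A/W465A. Under 20% lay 146 in WT, 578 in W465A/W796A, 2840 in W465A, 4479 in W464A/W465A and 4821 in W464A/W465A/W796A. Members that kept 50% or more numbered 218 in W464A/W465A and 143 in W464A/W465A/W796A, with 50 in both, which is 22.9% of the former and 35.0% of the latter. Those 50 lay in regions with a median of 1036.5 CpGs in 100 kb, above the 835 of all members.

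CpGs were then tested one by one with a quasi-binomial model over all 1424423 covered CpGs, and called where the adjusted p was under 0.05 and the pooled levels differed by 10 points or more. For W796A against WT 0 isolated CpGs were called lower and 0 higher, where 0.0187% and 0.00751% of all covered CpGs were called. An unadjusted p under 0.05 was found at 191 of the 7791, a smaller share than the 62264 of all 1424423 covered CpGs. Limma called 0 isolated CpGs. For W465A 6421 isolated CpGs were called lower, or 82.4%, against 54.4% of all covered CpGs. The corresponding shares were 92.4% against 60.6% for W464A/W465A (7197 isolated CpGs) and 94.8% against 61.9% for W464A/W465A/W796A (7383 isolated CpGs). The background contains the many CpG-dense positions that were low in WT too. Among CpGs with 1 neighbour the called shares were 80.8%, 91.5% and 94.2%, close to those of isolated CpGs. Without WT replicate 2 the called share for W465A was 49.2%. It was 74.4% with limma and 71.7% without pooling the spread across CpGs.

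For W465A/W796A against WT 607 isolated CpGs, or 7.79%, were called lower, against 3.16% of all covered CpGs and 6.44% of those with 1 neighbour. Against W465A, 293 isolated CpGs (3.76%) were called higher in W465A/W796A, against 4.62% of all covered CpGs. The median difference over all isolated CpGs was -26.0 points from WT and 20.5 points from W465A, so that the small counts sit beside a shift of most CpGs. Both counts were sensitive to the method and to single libraries. Limma called 30 and 66, and without pooling the spread across CpGs 0 and 0 were called. Leaving out 1 library moved the called shares to between 0.0257% (WT replicate 2) and 20.02% (WT replicate 1) against WT, and to between 0% (W465A replicate 3 or W465A/W796A replicate 1) and 8.97% (W796A replicate 1) against W465A.

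At single members the values carry the noise of few reads. Those named for the largest difference in a comparison had to be called in it, with no overlap between its groups. In that comparison the missing overlap and the small adjusted p follow from the choice and are not separate evidence. The size of the chosen difference is also likely to be overstated. This applies to each such member here and in the paragraphs that follow. Member 1, at position 5751594 of chromosome 2, lies between genes, 37079 bp from Camk1d, which encodes a calcium/calmodulin-dependent kinase. Its level was 100%, 93.9% and 100% in WT and 36.4%, 0% and 16% in W465A. It was 69.6%, 95% and 90% in W796A and 80%, 50% and 53.8% in W465A/W796A. In W464A/W465A it was 16.7%, 44.4% and 20%, and in W464A/W465A/W796A 26.7%, 41.2% and 15%. Member 1 was chosen for W465A against WT, where the pooled difference was -79.2 points (quasi-binomial F test, adjusted p = 5.39e-07). The WT libraries did not overlap those of the other RFTS mutants either. The pooled difference was -36.1 points for W465A/W796A (quasi-binomial F test, adjusted p = 0.0390).

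Member 2, at position 60406453 of chromosome 11, lies in an intron of Atpaf2, an assembly factor of mitochondrial ATP synthase. Its level was 66.7%, 94.1% and 100% in WT and 7.69%, 20% and 0% in W465A. In W465A/W796A it was 40%, 45.5% and 75%, and in W464A/W465A 7.14%, 33.3% and 5.88%. W465A/W796A overlapped WT and lay above every W465A library, with pooled differences of -79.0 points for W465A against WT (adjusted p = 2.03e-06) and 45.2 points for W465A/W796A against W465A (adjusted p = 0.0440).

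Member 3, at position 61389078 of chromosome 2 in repeat-masked sequence beside a run of CTTT repeats, had 81.8%, 88.9% and 100% in WT. It had 25%, 12.5% and 25% in W465A, 0%, 4.76% and 7.14% in W464A/W465A and 7.69%, 0% and 0% in W464A/W465A/W796A. Member 4, at position 135944497 of chromosome 5 and 9881 bp from Ywhag, a 14-3-3 protein gene, had 80%, 91.1% and 84.2% in WT and 0 methylated reads in all 3 libraries of W464A/W465A/W796A, with 10 to 22 reads each. In W465A/W796A it had 33.3%, 69.2% and 78.9%. The RFTS mutants without W796A lay at or below 25% at both positions, and none of their libraries overlapped WT.

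Member 5, at position 67924827 of chromosome 14 in a repeat in an intron of Dock5, which encodes an activator of Rac, had 50%, 92% and 90% in WT and 38.5%, 0% and 18.2% in W465A/W796A (pooled difference -61.4 points, adjusted p = 0.0174). It was a member at which W465A/W796A did not stand above W465A in all libraries, since W465A had 0%, 21.4% and 0%. Member 6, at position 146729266 of chromosome 4 in an intron of the lincRNA Gm26573, showed the reverse. It had 7.14%, 25% and 10.7% in W465A and 77.8%, 71.4% and 58.8% in W465A/W796A, with 77.8%, 78.4% and 84.2% in WT (W465A/W796A against W465A 55.1 points, adjusted p = 0.0166). Its surrounding 100 kb held 262 CpGs, the lowest number among all members.

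Member 7, at position 32098433 of chromosome 5 and 13471 bp from Babam2, was among the most resistant. It had 76.9%, 76.8% and 94.1% in WT, 84%, 94.1% and 44.8% in W465A and 61.1%, 52% and 57.1% in W464A/W465A. W465A overlapped WT and W464A/W465A lay below it, with a pooled difference of -24.0 points (adjusted p = 0.0485).

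Member 10, at position 5906512 of chromosome 14, is the WCGW member with the most reads, 50 to 129 per library, and lies in repeat-masked sequence 26130 bp from Gm8237. Its level was 19.7%, 31.8% and 46% in WT and 30.3%, 35.3% and 33.7% in W796A. It was 3.75%, 10.9% and 8% in W465A and 3.85%, 13% and 5% in W465A/W796A. Here W465A/W796A overlapped W465A and differed from it by -0.372 points (adjusted p = 1.00), whereas W465A/W796A against WT was -24.9 points (adjusted p = 0.0116). Its depth is far above the median of isolated CpGs, and whether its reads came from more than 1 copy in the genome was not tested.

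By gene, 2524 of 20807 protein-coding autosomal genes held an isolated CpG and 596 held at least 2. The 10 with the most are long genes. Gm20388 held 16, Fgfr2, a fibroblast growth factor receptor, 11, Cntnap2, a neuronal adhesion protein, 8, and Fars2, the mitochondrial phenylalanyl-tRNA synthetase, 7. Agbl4, Asic2, Babam2, Ctnna3, Galnt18 and Hdac4 held 6 each. The gene models of Gm20388 (chromosome 8, 119910841 to 124345722) and Fgfr2 (chromosome 7, 130162451 to 133123350) span other genes.

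In W465A the mean level of the members was highest in Hdac4 and lowest in Cntnap2 among these genes. Single members also spread widely, with quartiles of the pooled W465A level at 14.8% and 37.5% over all isolated CpGs. Each SD below is over libraries and does not measure the spread between members. The 6 members in introns of Hdac4, a histone deacetylase (chromosome 1, 91928779 to 92195699), had a mean of 81.9% ± 6.39 in WT, 52.2% ± 12.5 in W465A and 35.4% ± 13.7 in W464A/W465A (SD, n = 3). The 8 in introns of Cntnap2 (chromosome 6, 45059357 to 47304213) had 64.8% ± 20.3, 12.8% ± 2.88 and 9.16% ± 1.88. The W465A libraries lay between 37.8% and 59.8% for Hdac4 and between 9.49% and 14.9% for Cntnap2. The 100 kb windows held a median of 689.5 CpGs around the Hdac4 members and 466 around those of Cntnap2.

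The 11 members in Fgfr2 had 76.2% ± 17.4 in WT, 30.2% ± 4.14 in W465A and 47.9% ± 2.39 in W465A/W796A, and 10 of them were called lower in W465A. The 7 in Fars2 had 71.6% ± 1.58, 38.7% ± 5.33 and 55.3% ± 3.51, with 3 called lower in W465A and all 7 in W464A/W465A. Of all isolated CpGs 82.4% were called lower in W465A and 92.4% in W464A/W465A, and of all covered CpGs 54.4% and 60.6%. Whether any gene departed from these shares was not tested. Over the 10 genes the mean level of their members ran from 12.8% to 52.2% in W465A, around the 26.9% of all isolated CpGs. By chromosome the level was more even, from 70.6% on chromosome 7 to 74.0% on chromosome 16 in WT and from 24.7% on chromosome 10 to 30.6% on chromosome 16 in W465A.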

How the data were processed

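CpG methylation was measured by eRRBS in 18 libraries, 3 in each of 6 groups taken from the sample titles. Per the labels' protocols, the enzymes MspI, BfaI and MseI cut the DNA, and fragments were sequenced from both ends with 150 bp reads. The submitters' processing notes name cutadapt 1.2.1, Bismark 0.18.1, Bowtie 1.2 and the builds mm10 and GRCm38, with no role or order. Whether duplicates were removed is not given in the sources used here. For each CpG and library the authors deposited 2 whole-number counts without normalization, methylated reads and total reads, and all 36 such columns were used. The listed positions are the CpGs of the GRCm38 reference. Gene features came from GENCODE M21 and repeats from the lower-case reference.

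A CpG needed at least 5 reads in every library. Effects of W465A, W464A/W465A and W796A were compared between classes of CpGs by two-sided exact permutation tests with libraries exchanged within background, with Benjamini-Hochberg adjustment over 9 tests (number of neighbours) and 12 tests (classes of isolated CpGs). Single CpGs were fitted with a quasi-binomial model with 1 level per group. The spread was taken from its trend over 20 bins of coverage and 10 of level, with a floor of 1, because single CpGs varied around the trend by no more than sampling gives. F tests were adjusted over all 1424423 CpGs. In simulated data for W465A against WT on these CpGs, 0 of 100 CpGs lowered by 20 points, 10 of 100 lowered by 40 points and 20 unchanged CpGs were called, and 4.86% of unchanged CpGs had p under 0.05. With so few changed CpGs the adjustment is stricter than in the real data. Unchanged CpGs outnumbered changed ones among the calls, so the adjusted p under 0.05 did not hold the share of false calls at its nominal value there. The simulation drew each CpG separately, without a shift shared by a whole library such as that between the WT libraries. It therefore does not show how the calls behave under such a shift. Limma 3.58.1 in R 4.3.3, on log2 ratios of counts with 0.5 added, was an alternative. The rest ran in Python 3.11.15 with numpy 2.4.6, scipy 1.17.1 and pandas 2.3.3.

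The members, the classes and the rule for named CpGs were chosen with earlier results of these data known. Named CpGs have at least 10 reads in every library. They are, per comparison, the 2 called with the largest difference and no overlap between groups, then the 2 at 80% or more in WT with the smallest W464A/W465A difference, the 2 with the lowest WT level and the most deeply read of 3 flank classes. Not all of them are printed. Named genes are the 10 protein-coding genes with the most members and the genes nearest to named CpGs. Comparisons within regions of like CpG number, and without CpGs that had no methylated read, were chosen after seeing the data.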

Additional observations from a re-analysis of the deposited data

Results flagged for a closer look

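The X chromosome lay outside the members and the comparisons of levels between classes, which used autosomes. The model of single CpGs and the shares over all covered CpGs did include X and Y. It held 24 isolated CpGs read at least 5 times in each library, and their signal in WT, a mean level of 70.8%, is listed because it stands above what a count of 0 would allow. In W465A the level was 19.96% and in W465A/W796A 41.3%. No isolated CpG of the Y chromosome was read in every library.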

How the results depend on the processing

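The differences in mean level of isolated CpGs moved by less than 1 SD between libraries under every alternative, and 5 of the 6 kept their direction. W796A minus WT, 1.27 points, ranged from -4.15 to 8.79 points with 1 library left out and was negative without WT replicate 1 (-4.15), W796A replicate 2 (-3.77) or W796A replicate 3 (-1.22). Tests of the effects of W465A and W464A/W465A by number of neighbours, by region and between introns and intergenic sequence kept their calls when any library was left out. The cause was not tested for any of the changes that follow. For CpGs read at least 10 times throughout, the difference from 1 neighbour was -0.570 points for W464A/W465A and -0.00515 for W796A, and that from 2 to 4 neighbours -0.0572 for W796A. Within isolated CpGs it was then 3.13 points for flanks (W464A/W465A), 0.122 for repeats (W796A), 4.2002, 2.43 and 0.240 for introns (W465A, W464A/W465A, W796A) and -6.39, -1.52 and -0.0795 for regions in the same order. With at least 20 reads the differences from 1 neighbour were -0.461, -0.904 and -0.412 points and from 2 to 4 neighbours -1.11, 1.64 and -0.978 for W465A, W464A/W465A and W796A. Classes of isolated CpGs then had under 20 members and gave no value. On the log2 scale the W796A effect differed by -0.065 from 10 or more neighbours (adjusted exact p = 0.154). It differed by -0.042 for introns (adjusted exact p = 0.0137) and 0.12 for regions (adjusted exact p = 0.0147), which both passed. The flank differences were -0.17 for W465A (adjusted exact p = 0.0147) and -0.076 for W464A/W465A (adjusted exact p = 0.150). The repeat difference for W464A/W465A was -0.054 (adjusted exact p = 0.0105). With reads counted once the repeat difference for W796A was 0.499 points.

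Within CpG-poor regions, a comparison chosen after seeing the data, the difference from 1 neighbour was -0.370 points for W464A/W465A and -0.144 for W796A, and from 2 to 4 neighbours -0.531 and -0.446. Within CpG-rich regions it was -0.581 for W465A, -0.283 for W464A/W465A and -0.141 for W796A against 1 neighbour, and -0.321 for W796A against 2 to 4. Leaving out 1 library gave W796A differences from -0.0176 to 0.140 points (1 neighbour; negative without WT replicate 1, at -0.0176, or W796A replicate 2, at -0.00652) and from -0.107 to 0.252 (2 to 4 neighbours; negative without WT replicate 1, at -0.107, W796A replicate 2, at -0.0175, or W465A/W796A replicate 2, at -0.0199). It gave 0.556 to 0.840 for repeats, -0.366 to 0.0461 for introns (0.0461 without WT replicate 1), 0.507 to 1.38 for regions, where the call was made without WT replicate 3, and -1.43 to 0.121 for W465A and flanks (0.121 without WT replicate 2).

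The called share of isolated CpGs ranged, with 1 library left out, from 0% to 0.0128% for W796A, from 49.2% to 85.2% for W465A, from 0.0257% to 20.02% for W465A/W796A against WT and from 0% to 8.97% against W465A. For W465A/W796A against WT and against W465A it was 0% and 0% without pooling the spread and 0.385% and 0.847% with limma. Against WT it was 28.1% at 20 reads. Between same-numbered libraries, no pair of groups had all correlations of their deviations over 0.1 (WT and W796A 0.0257 to 0.0465). Deviations at single CpGs carry the noise of few reads, and whether same-numbered libraries shared a batch was not tested. With the replicate number as a replicate block, limma called 0% for W465A/W796A against WT and 0.424% against W465A. The neighbour tests of W465A and W464A/W465A kept their calls in that setting (blocked exact permutation test, adjusted p = 0.0469). Depth limits what can be seen at a single isolated CpG, since 5.96% of them were read 10 times in every library.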
